A study of Mus musculus with 10 samples.

Results

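Melanotropes, the Pomc-expressing cells of the intermediate lobe of the pituitary, were followed in 10 single-cell RNA libraries of adult mouse pituitary. They were chosen by genes other than Pomc. A barcode (the sequence tag that stands for 1 droplet and usually 1 cell) was kept in the Drop-seq libraries with at least 300 unique molecular identifiers (UMIs, 1 per counted RNA molecule) and 100 to 4000 genes, and in the 10X Genomics libraries with more than 200 and fewer than 3000 genes. Its mitochondrial share of UMIs had to be below 0.1 and its share of ribosomal protein pseudogenes below 0.01. A kept barcode was called a melanotrope when it held UMIs of at least 2 of the 7 genes Pax7, Pcsk2, Oacyl, Esm1, Rbfox3, Gfra4 and Megf11 and no UMI of Crhr1, Avpr1b, Gnrhr, C1qa or C1qb, genes of corticotropes, gonadotropes and macrophages. This gave 1887 melanotropes among 22325 kept barcodes (8.45%), with 2952897 UMIs in all.

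The paper gives CD1 as the strain of its purchased mice and names no strain for the mt/hGRF line. The 8-week wild-type groups were female (n = 3 libraries) and male (n = 3), each with library 1 made on the 10X Genomics platform and libraries 2 and 3 by Drop-seq. The other groups, all Drop-seq, were mt/hGRF females of 8 weeks (n = 1), in which a metallothionein promoter drives human growth hormone-releasing factor, wild-type virgin females of 13 weeks (n = 1) and wild-type lactating females of 13 weeks (n = 2). Cells were dissociated from the whole pituitary without enzymes and were not sorted. The kept barcodes of a library summed to 798791 to 4960260 UMIs. Cells of several mice can share a library, so the p-values below measure the spread between libraries, which may be technical.

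Melanotropes line the intermediate lobe and make pro-opiomelanocortin, the Pomc product, as do the corticotropes of the anterior lobe. In corticotropes the prohormone is cut mainly to ACTH, whereas in melanotropes the convertase encoded by Pcsk2 cuts further, to alpha-MSH and beta-endorphin. The T-box factor Tbx19 drives Pomc in both lineages, the paired homeodomain factor Pax7 sets the melanotrope identity, and dopamine acting on the receptor encoded by Drd2 restrains melanotrope secretion.

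The sequence in front of Pomc is shown because Pomc is the transcript that marks these barcodes without having been used to choose them. Pomc lies on chromosome 12 of GRCm38, from 3954951 to 3960642 on the plus strand in the GENCODE annotation. The 250 bases before its start in the RefSeq promoter table (GRCm38.p6, chr12:3954695-3954944, plus strand) read 5′ to 3′ as follows, with capitals marking 3 short motifs. The first searched was TATAAA, which some core promoters carry near the start. The next was CATCTG, an E-box of the kind that basic helix-loop-helix factors bind, found here on the minus strand. The last was TAATTA, a homeodomain core.
Pomc: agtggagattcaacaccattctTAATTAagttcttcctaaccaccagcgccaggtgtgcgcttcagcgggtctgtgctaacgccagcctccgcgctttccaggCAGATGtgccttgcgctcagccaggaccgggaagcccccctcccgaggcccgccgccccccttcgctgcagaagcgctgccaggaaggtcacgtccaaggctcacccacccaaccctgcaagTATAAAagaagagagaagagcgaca
The 3 motifs did not overlap and began 25, 147 and 228 bases before the start. Searched on both strands of the 300-base windows of 32851 promoters in that table, TATAAA was present in 13.6%, CATCTG in 17.2% and TAATTA in 5.29%. These matches describe the letters only, and binding was not measured.

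The genes of the gate were seen unevenly, which is a description since they chose the barcodes. Over all melanotropes, 83.4% held a UMI of Pcsk2, the convertase gene, and 82.8% one of Oacyl, an acyltransferase gene, whereas 27.5% held Pax7. Rbfox3, a neuronal splicing factor, was seen in 23.95%, Esm1, a secreted proteoglycan, in 23.2%, Megf11 in 18.9% and Gfra4, a GDNF-family co-receptor, in 18.1%. Pcsk2 and Oacyl occurred together in 1288 melanotropes (68.3%), and 493 were held by these 2 genes alone. By library the share with Pcsk2 ran from 67.9% to 100% and that with Oacyl from 68.2% to 92.9%. Macrophage-gated barcodes (those with C1qa or C1qb) should lack these genes. By library, up to 20% of them held Pcsk2, up to 8.13% Oacyl and up to 2.68% Pax7. Among all kept barcodes other than melanotropes the highest shares were 23.4%, 5.24% and 1.29%. Whether RNA free in the droplets or droplets with several cells added to such shares was not tested. Crhr1, Avpr1b, Gnrhr, C1qa or C1qb removed 116 barcodes that had passed the other criteria.

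Barcodes just inside the gate differed from those just outside it in Pomc. The 957 melanotropes with exactly 2 gate genes had a median over libraries of 696 Pomc UMIs per 10000 UMIs, and no library was below 571. The 2629 barcodes with 1 gate gene had a median of 236 and no library above 568, and those with no gate gene had 86.5. In 8-week male library 2 the step was small, at 577 with 2 gate genes and 568 with 1. With 3 gate genes (544 barcodes) the median was 825 and with 4 or more (386) it was 1035. Depth moved with the number of gate genes, since the median UMIs per barcode was 608 to 1267 by library with 1 gene and 860 to 2683 with 4 or more, and its part in this order was not tested.

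Pomc was higher in melanotropes than in the other kept barcodes of the same library in 10 of 10 libraries. In the 8-week wild-type females its level, as UMIs per 10000 UMIs summed over the melanotropes of a library, was 1638, 1142 and 2475 in libraries 1 to 3. In the 8-week males it was 1013, 1234 and 1656. The mt/hGRF library had 993, the virgin library 1107 and the lactating libraries 827 and 1385. The other kept barcodes had 103 to 314, so the ranges did not overlap. The mean log2 ratio was 2.63 ± 0.52 (SD, n = 10 libraries), 4.21-fold to 11.8-fold by library, with p = 0.00195 in an exact two-sided sign-flip permutation test, the smallest p that 10 libraries can give. Melanotropes were also deeper, with a median of 698 to 2214 UMIs per barcode by library against 525 to 1188, and the ratio was 2.63 among barcodes of at least 500 UMIs. Tbx19, outside the gate as well, was higher in melanotropes in 10 of 10 libraries, at 0.227 to 1.58 per 10000 against 0.0718 to 0.366.

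**Figure D1:**
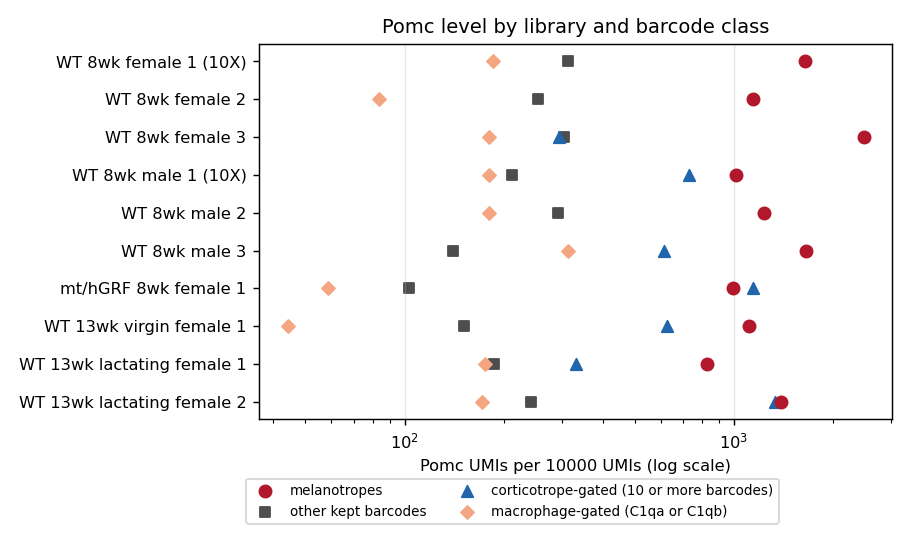
Pomc UMIs per 10000 UMIs (log axis) in each of the 10 libraries, for melanotropes, other kept barcodes, macrophage-gated barcodes and, where at least 10 were found, corticotrope-gated barcodes. Melanotropes sit between 827 and 2475 and other kept barcodes between 103 and 314.

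Among 1003 genes outside the gate that were seen in melanotropes of every library at a mean of at least 1 UMI per 10000, Pomc ranked 4 by the median ratio to the other kept barcodes. Ttn, the gene of the muscle protein titin, ranked first, followed by Etv1, an ETS-family transcription factor, and Scn2a, a voltage-gated sodium channel subunit. These rankings describe the chosen barcodes and carry no test. Ttn averaged 15.4 ± 11.8 UMIs per 10000 (SD, n = 10) in melanotropes and 0.726 ± 0.571 in the other barcodes. Its level split by platform, at 1.47 and 1.42 in the 10X Genomics libraries and 7.003 to 34.9 by Drop-seq, and the difference from other barcodes was in the same direction in all 10. Etv1 averaged 3.71 ± 2.56 against 0.365 ± 0.187 and Scn2a 1.62 ± 0.440 against 0.173 ± 0.0799.

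Among the remaining leading genes, Nelfcd, a subunit of the negative elongation factor, stood at 3.51 ± 0.842 per 10000 against 0.657 ± 0.171, one of the narrowest spreads among them. Snhg11, a long non-coding RNA, ranged from 1.45 to 85.9, and the 3 highest values were those of the 13-week libraries. Srrm4, a splicing regulator of neurons, averaged 2.54 ± 1.23 against 0.749 ± 0.342. Syt1, the calcium sensor of vesicle release, averaged 4.27 ± 1.24 against 1.86 ± 0.535, and Chga, the granule protein chromogranin A, 8.82 ± 3.73 against 3.58 ± 1.12. The nuclear receptor gene Nr4a2 ranged from 0.345 to 9.93, with the 8-week wild-type libraries 3 and the mt/hGRF library at the top. The other leading genes were Aloxe3, Slitrk6, Heg1, Baiap3, Palmd, Trpm3, Sparcl1, Alcam and Chd3. All 20 were above the other barcodes in 10 of 10 libraries except Baiap3, a gene of dense-core vesicle traffic, which was above in 9.

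**Figure D2:**
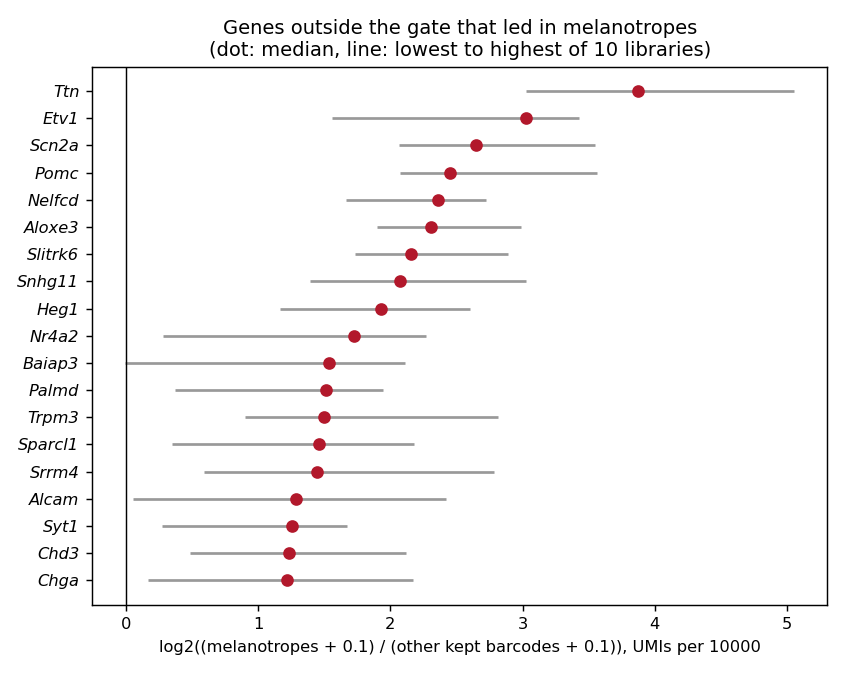
Log2 ratio of melanotropes to other kept barcodes for 19 of the 20 leading genes outside the gate, with 0.1 UMIs per 10000 added to both. Dots are medians over 10 libraries and lines run from the lowest to the highest library. Ttn has the highest median (3.87), and only the line of Baiap3 reaches below 0.

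At the other end of the ranking stood Hbb-bt, Hba-a1 and Hbb-bs, the hemoglobin genes, and Apoe, the apolipoprotein E gene. Apoe was at 1.10 ± 0.733 per 10000 in melanotropes and 27.3 ± 13.1 in the other barcodes, and Cst3, cystatin C, at 4.43 ± 1.58 against 25.5 ± 10.0. Pou1f1, the factor of somatotropes, lactotropes and thyrotropes, was at 1.82 ± 0.835 against 5.58 ± 0.951, with no overlap between the ranges. Among 20 lineage factors, Tbx19, Etv1, Nr4a1, Nr4a2 and Creb3l2, a regulator of secretory capacity, were higher in melanotropes in 10 of 10 libraries. Pou1f1, Pitx1, Isl1, Gata2 and the glucocorticoid receptor gene Nr3c1 were lower in all 10, Isl1 and Gata2 on 24 and 37 UMIs over all melanotropes. The share of all genes on one side in all 10 libraries is not given, so this list and those below describe single genes only. Lhx4 had no UMI in melanotropes and at most 0.0696 per 10000 in the other barcodes of a library. Lhx3, a factor of pituitary progenitors and hormone cells, was about level, with a median over libraries of 0.959 against 0.868.

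The genes that process and store the prohormone did not move as a block. Of 9 genes for Pomc and its processing, a list that leaves out the gate gene Pcsk2, Pomc alone was higher in all 10 libraries. Cpe, the carboxypeptidase that trims the cut peptides, was higher in 9 (median 4.12 against 2.60 per 10000), as was Pam, which amidates peptides such as alpha-MSH (3.69 against 3.06). Pcsk1, the convertase that makes ACTH, was higher in 6 (0.976 against 0.633), and Pcsk1n, which encodes an inhibitor of that convertase, in 2 (4.57 against 5.40). Of 21 genes of granules and exocytosis, Chga, Syt1, Syt4, Rab27b and Ptprn were higher in all 10 libraries. Without a share over all genes beside it, this describes single genes and not the group. Chgb, the granule protein chromogranin B, was higher in 1 library only (22.8 against 30.3).

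Receptors and channels were counted at low levels, so single genes rest on few molecules. Drd2, the dopamine receptor gene, had 109 UMIs over all melanotropes, and was higher than in other barcodes in 9 of 10 libraries, at 0 to 1.15 per 10000 against 0.00488 to 0.259. The library at 0 was the 10X Genomics male, where a count of 0 allows a level of up to 0.0803 per 10000 (3 counts). Of the GABA receptor subunits, Gabra2 was higher in 9 libraries (median 0.951 against 0.370), while Gabrb1 was higher in 4. The estrogen receptor gene Esr1 was lower in melanotropes in 10 of 10 libraries, at a median of 0.216 against 0.412. Of 19 ion channel genes with counts, Scn2a and Cacna2d1, an auxiliary calcium channel subunit, were higher in all 10 libraries. Cacna1c, Cacna1h, Kcnd2 and Kcnq3, calcium and potassium channel genes, were lower in all 10. The latter rested on 33, 5, 24 and 5 UMIs over all melanotropes. A count of 0 allows up to 0.0445 to 0.396 per 10000 by library, and Kcnq3 stood at 0.0262 to 0.110 in the other barcodes. The direction of Cacna1h and Kcnq3 by library is therefore uncertain.

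Marker genes of other pituitary cells were counted in the melanotrope barcodes, and whether they came from other cells was not tested. Gh, the growth hormone gene, stood at 157 to 1892 per 10000 and Prl, the prolactin gene, at 39.0 to 929. Both were below the other barcodes in 9 of 10 libraries. Macrophage-gated barcodes held Gh at 108 to 1679 and Prl at 41.5 to 682. The summed gonadotrope genes (Lhb, Fshb, Cga) were at 4.40 to 49.8 against 5.93 to 44.7 and the summed thyrotrope genes (Tshb, Dio2) at 0.528 to 2.06 against 1.09 to 3.09. The macrophage genes Ctss, Tyrobp and Csf1r summed to at most 0.730 in melanotropes against 54.9 to 116 in macrophage-gated barcodes. The T and natural killer cell genes Cd3e and Nkg7 were at 0. The stem cell genes (Sox2, Sox9, S100b, Aldh1a2) summed to 0.163 to 0.892, the pituicyte genes to at most 0.460, the endothelial genes to at most 0.249, the stromal genes to 0.264 to 4.99, the proliferation genes to at most 0.490, and Oxt with Avp to at most 0.122. Of the kept barcodes, 12 sequences were shared between libraries in all, 5 of them between the 10X Genomics libraries. Doublets were not called, and leaving out barcodes above the 95th percentile of UMIs left the Pomc ratio at 2.59.

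The melanotrope share of kept barcodes differed between libraries by more than counting error. It was 8.95%, 6.94% and 11.3% in the 8-week wild-type females (95% Wilson intervals 7.65 to 10.4, 5.38 to 8.90 and 9.68 to 13.2). The 8-week males had 9.63%, 6.61% and 6.49% (8.28 to 11.2, 5.11 to 8.51 and 5.48 to 7.67). The mt/hGRF library had 3.97% (3.31 to 4.77), the lowest before depths were matched. Of its barcodes within the UMI and gene limits, 38.7% failed the mitochondrial limit, against 6.95% to 20.4% in the other libraries. The part of this in the values of that library was not tested. The virgin library had 6.70% (5.93 to 7.56), and the lactating libraries 12.8% (11.6 to 14.1) and 9.90% (9.12 to 10.7). Shares by lactation and transgene, with 1 or 2 libraries a group, were not tested, and the intervals cover counting error only. How much of the intermediate lobe entered each suspension is unknown, and depth sets part of the share. When every barcode was thinned to 300 UMIs, both ends of the order changed: female 2 was lowest, at 1.49% against 1.59% in the mt/hGRF library, and female 3 highest, at 6.69% against 5.04% in lactating 1. The females then had 3.34%, 1.49% and 6.69%, the males 3.74%, 1.92% and 2.78%, the virgin library 2.98% and lactating 2 3.37%.

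Between the sexes the share did not differ beyond the spread of libraries. Males averaged 7.58% ± 1.78 and females 9.07% ± 2.20 (SD, n = 3 each), a difference of -1.50 percentage points (male minus female; exact permutation test, two-sided, p = 0.5, where 0.1 is the smallest possible). Libraries of one number pair 1 male with 1 female, by a tag in the titles for Drop-seq and by the platform for 10X Genomics. Such a pair is called a batch below, although no label names one. Within the pairs the difference was 0.682 on the 10X Genomics platform and -0.329 and -4.85 by Drop-seq, so its sign depended on the pair.

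**Figure D3:**
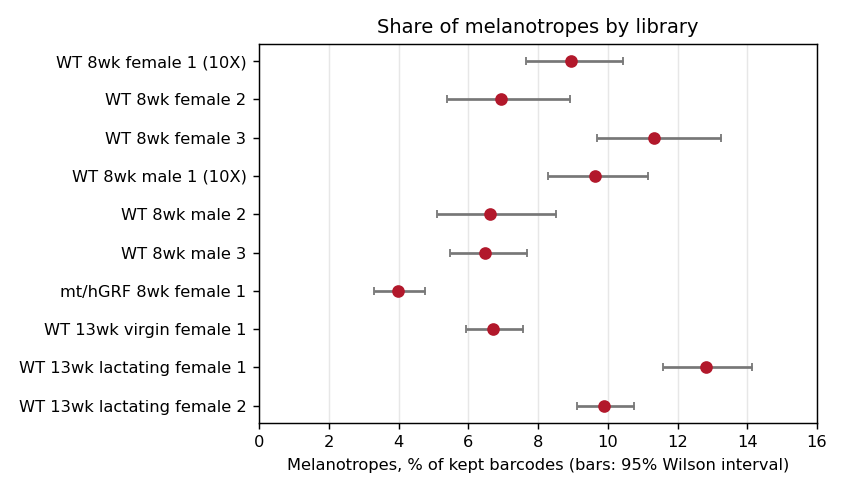
Melanotropes as a percent of kept barcodes in each library, with 95% Wilson intervals as bars. At these unmatched depths the mt/hGRF library is lowest (3.97%) and lactating library 1 highest (12.8%), whereas at 300 UMIs per barcode female 2 (1.49%) and female 3 (6.69%) are.

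Between male and female melanotropes, 10 of 8799 genes tested were called (0.114%), 6 higher (0.0682%) and 4 lower (0.0455%) in males. The UMIs were summed per library over melanotropes and compared with edgeR's quasi-likelihood test with a platform term and Benjamini-Hochberg adjustment, at an adjusted p below 0.05, and 266 genes had an unadjusted p under 0.05. Of the calls, 6 were genes of the sex chromosomes. The Y-linked genes Kdm5d, Ddx3y, Eif2s3y and Uty were higher in males (log2 fold changes 5.29 to 7.15), and Xist and Tsix, the RNAs of X inactivation, were lower (-10.82 and -6.51). Xist was at 52.8 ± 22.9 per 10000 in female and 0.0237 ± 0.0223 in male melanotropes (n = 3 each), in accord with the labels of all 6 libraries.

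The other 4 calls were not sex-linked, and the mean of the other kept barcodes lay on the same side for each. Fshb, the follicle-stimulating hormone beta gene, was at 2.65, 0.792 and 0.709 per 10000 in the male libraries and 0, 0 and 0.0349 in the female ones, where a count of 0 allows up to 0.0680 and 0.345 (log2 fold change 6.497, edgeR adjusted p = 4.71e-08). The groups did not overlap, as for 5.9% of genes tested, and the other kept barcodes of the same libraries showed 2.61 ± 0.713 against 0.159 ± 0.131. Cwc22, a splicing factor gene, was at 0.884, 6.999 and 10.7 in males and 0.703, 0.115 and 0.174 in females (3.21, edgeR adjusted p = 0.000846), and the other barcodes had 6.70 ± 6.68 against 0.451 ± 0.282. Its male levels were high by Drop-seq, whereas on the 10X Genomics platform the sexes differed little. Gal, the galanin gene, was lower in males, at 0.161, 0 (which allows up to 0.396) and 0.0886 against 0.589, 0.345 and 1.26 (-2.80, edgeR adjusted p = 0.0115), with 0.135 ± 0.00921 against 0.716 ± 0.707 in the other barcodes. Prl was lower in males (-2.35, edgeR adjusted p = 0.00511), at 130, 39.0 and 58.4 against 521, 436 and 84.2, with overlap, and at 156 ± 55.8 against 475 ± 247 in the other barcodes. How far the Fshb, Gal and Prl molecules in melanotrope barcodes came from other cells was not tested.

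A test of the difference itself, the sex effect in melanotropes minus that in the other kept barcodes, called 0 of 13446 genes in edgeR, with 463 at an unadjusted p under 0.05. Several calls were lost when 1 library was left out, which also removes degrees of freedom. Fshb lost its call without the 10X Genomics female or male library (edgeR adjusted p = 0.1995 and 0.6937; log2 fold change 4.34 and 4.35), as did the Y-linked Uty (0.2229 and 0.55). The others were Cwc22 without female 2 or 3 (0.3059 and 0.9997), Gal without female 1, male 1, female 3 or male 3 (0.126 to 0.9997), and Prl without libraries 1 or 2 of either sex (0.2114 to 1.00). The fold changes did not shrink in each case: without library 1 of either sex that of Uty was 6.46 and 6.51, of Gal -3.84 and -3.85 and of Prl -2.49 and -2.50, all beyond the values with all 6 libraries, whereas Cwc22 was at 2.62 and 2.21 without female 2 or 3, Gal at -2.02 and -2.55 without female 3 or male 3, and Prl at -1.50 and -2.13 without female 2 or male 2. Gal also lost its call with the gate of 3 of the 7 genes (-1.40), with the gate without Pcsk2 (-1.44) and with DESeq2 (-2.98), and Cwc22 with DESeq2 (4.15), with adjusted p of 0.9996, 0.9997, 0.8675 and 0.9998 in the edgeR and DESeq2 fits. Leaving out 1 of the 10X Genomics libraries at a time gave 6 genes each, and leaving out both gave 4. With the batch as a block in place of the platform, 19 genes were called, and the added ones were Fos, Junb and Dusp1 (immediate-early genes), Lhb, Ghrhr and Snhg11, higher in males, and Hba-a1, Gm26917 and Tmem181a, lower, all named here after their values were seen.

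None of the genes of hormone processing, granules, lineage factors, receptors, channels, protein folding, immediate-early response, metallothioneins or mitochondria was called by sex with the platform term, whereas with the batch block Fos, Junb and Dusp1 were (edgeR adjusted p = 0.022, 0.00792 and 0.0498). Of 8 processing genes tested, 0 had a positive log2 fold change and the median was -0.42, against -0.0015 over all genes tested. Of 10 immediate-early genes tested, 9 were positive and the median was 0.86. Pomc had a log2 fold change of -0.59 ± 0.46 (SE, edgeR adjusted p = 1.00), at 1301 ± 327 in males and 1751 ± 674 in females.

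Between lactating and virgin melanotropes, 2 of 10540 genes tested were called (0.019%), both lower in lactation, and 255 had an unadjusted p under 0.05. The test was the same, over all 8 Drop-seq libraries, and the spread of the lone virgin library was taken from the other groups. Cwc22 was at 12.2 per 10000 in the virgin library and 0.262 and 0.0445 in the lactating ones (log2 fold change -6.25, edgeR adjusted p = 2.32e-11). The other kept barcodes of those libraries moved alike, at 10.2 against 0.252 and 0.126, so the virgin library as a whole stood apart, as did the Drop-seq male libraries. Cd74, the invariant chain of antigen-presenting cells, had 20 UMIs in virgin and 2 in lactating melanotropes (-4.95, edgeR adjusted p = 0.0475). The other barcodes of the virgin library also held more Cd74, at 22.1 against 3.17 and 1.22, and the call was lost without any of the libraries mt/hGRF, lactating 1 or 2, female 2 or 3 or male 3 (edgeR adjusted p = 0.0555 to 0.747), with log2 fold changes of -7.08 to -4.22.

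No gene of the processing, granule, lineage, receptor, channel or folding groups was called with lactation. Pomc differed by 0.26 ± 0.70 (SE, log2, edgeR adjusted p = 1.00), at 827 and 1385 in the lactating libraries and 1107 in the virgin one, which lay between them. The prolactin receptor gene Prlr was at 1.17 and 1.60 against 1.18, and Drd2 at 0.595 and 0.237 against 0.446. Of 19 folding genes tested 6 were positive, with a median of -0.23, and of 8 processing genes 4, with a median of -0.0085, against 0.069 over all genes. With 1 virgin library, a p that misses the threshold does not show that the levels were equal.

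In mt/hGRF melanotropes 3 of 10540 genes tested were called against the 8-week wild-type Drop-seq females (0.0285%), all higher, and 464 had an unadjusted p under 0.05. All 3 were hemoglobin genes, which have near-identical copies between which reads can be split. Hba-a1 was at 66.7 per 10000 in the mt/hGRF melanotropes and 1.15 and 0.419 in the wild-type ones (log2 fold change 6.62, edgeR adjusted p = 4.05e-09). Hbb-bs was at 153 against a mean of 1.64 (6.67), and Hbb-bt at 24.8 against 0.220 (6.79). In the other kept barcodes Hba-a1 was at 95.9 against 163 and 124, so it was not higher in the other barcodes. Macrophage-gated barcodes of the mt/hGRF library had a sum of 242 per 10000 over 4 hemoglobin genes, against 244 in its melanotropes and 368 in its other barcodes. In wild-type female 2 the macrophage-gated barcodes had 349 and the melanotropes 3.68, and in female 3 they had 1.73 and 1.61. In the mt/hGRF library, for Hba-a1 alone its corticotrope-gated barcodes had 2.62 (4 UMIs) against 66.7 in its melanotropes. Without wild-type female 2, Hbb-bt lost its call (6.75, edgeR adjusted p = 0.123). Without wild-type female 3, edgeR called 0 genes, with 526 at an unadjusted p under 0.05, and the log2 fold changes of the 3 genes were 5.93 to 6.796. With every library kept, DESeq2 called 0 genes, with 79 at an unadjusted p under 0.05, and fold changes of 6.47 to 6.802.

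**Figure D4:**
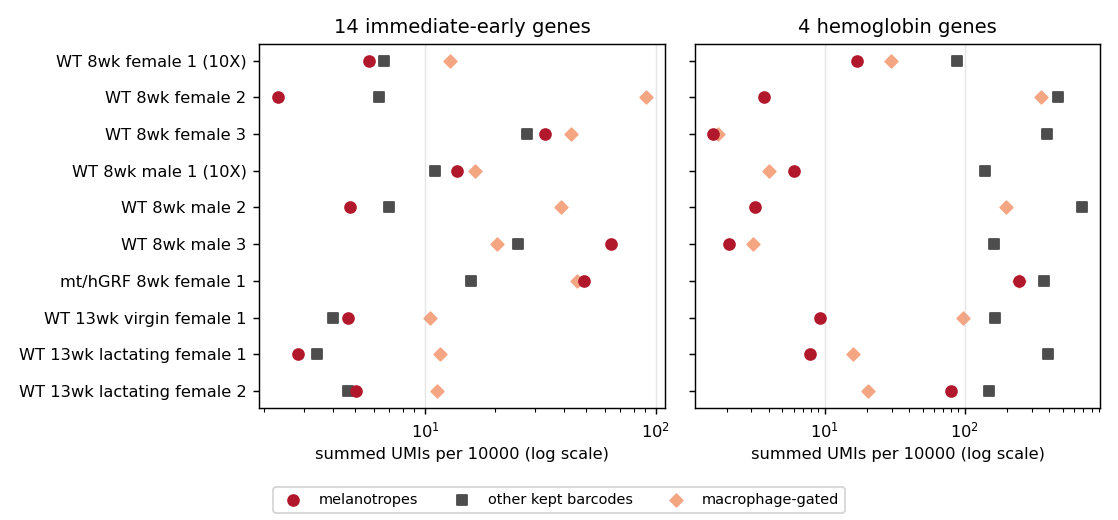
Summed UMIs per 10000 (log axes) of 14 immediate-early genes (left) and 4 hemoglobin genes (right) in melanotropes, other kept barcodes and macrophage-gated barcodes of each library. For hemoglobin the mt/hGRF melanotropes stand at 244 and those of lactating 2, the next highest, at 79.3. Among melanotropes the immediate-early sum is highest in male 3 (63.9), mt/hGRF (48.8) and female 3 (33.0), while macrophage-gated barcodes of female 2 reach 91.0.

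The immediate-early genes, which are induced within minutes of cell handling or stimulation, varied widely between libraries, also within the male and female 8-week groups. Their sum in melanotropes was 63.9 per 10000 in male 3, 48.8 in the mt/hGRF library, 33.0 in female 3 and 13.7 in male 1, and 2.30 to 5.73 in the other 6 libraries. Within each pair of same-numbered libraries the male sum was above the female one, at 13.7 against 5.73, 4.75 against 2.30 and 63.9 against 33.0. In male 3 and the mt/hGRF library the melanotropes were well above the other kept barcodes (25.3 and 15.9). Macrophage-gated barcodes had 20.4 in male 3 and 45.7 in the mt/hGRF library. The mitochondrial share of UMIs in melanotropes was 5.89% in female 3, 4.21% in male 3 and 4.27% in the mt/hGRF library. Their other barcodes had 1.75%, 1.98% and 3.69%. In the remaining libraries melanotropes had 2.32% to 3.49% and other barcodes 2.49% to 3.43%. Its part in these sums was not tested. Fos, 1 of these genes, was at 15.4 in mt/hGRF melanotropes and at 0.345 and 11.7 in the wild-type ones, and was not called (1.19 ± 0.78, SE, edgeR adjusted p = 0.943).

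Of the transgene's own driver gene family, the metallothionein gene Mt1 was at 7.98 per 10000 in mt/hGRF melanotropes and 3.79 and 1.68 in wild-type ones, the highest of the 10 libraries, without passing the test (1.66 ± 0.52, SE, edgeR adjusted p = 0.943). Drd2 was at 0.163 against 1.15 and 0.907 (-2.58 ± 0.97, edgeR adjusted p = 0.943), on 2 UMIs in the mt/hGRF library. Pomc was at 993 against 1142 and 2475 (-0.90 ± 0.72, edgeR adjusted p = 0.945), below both. Of 8 processing genes tested 0 were positive, with a median of -0.53 against -0.089 over all genes. Of 12 immediate-early genes tested 10 were positive, with a median of 1.01.

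The nearest cells to compare with are the corticotropes, the other Pomc lineage. Corticotrope-gated barcodes held at least 1 UMI of Crhr1 or Avpr1b, the receptors of corticotropin-releasing hormone and vasopressin, and none of the 7 melanotrope genes, Gnrhr, C1qa, C1qb or Ghrhr. In 7 libraries with at least 10 of them, 143 such barcodes (215420 UMIs) were compared with 1631 melanotropes, with the library as a block. Genes of both gates were left out, and 8157 genes were tested. Levels below are UMIs per 10000 over the summed 7 libraries, whereas fold changes come from edgeR with scaling factors from the 1243 genes seen in every sum, so that levels and fold changes need not match.

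The number and split of calls depended on the scaling. With these factors 1048 genes were called (12.8%), 612 higher (7.5%) and 436 lower (5.35%) in melanotropes, a share of 58.4% higher. With DESeq2's size factors 579 were called (48.2% higher), with library totals 1273 (13.3%), and with TMM factors from all genes tested 1456 (84.4%), while the median log2 fold change of all genes moved from 0.18 to 0.14, -0.42 and 0.51. Without the virgin library, the one with the most corticotrope-gated barcodes (33), 560 genes were called. Under all 4 scalings 134 genes were higher (1.64% of genes tested) and 209 lower (2.56%), and the genes below are called higher or lower only where all 4 called them, unless said otherwise.

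Pomc was higher in melanotropes than in corticotrope-gated barcodes, at 1335 against 693 per 10000 (log2 fold change 1.58 ± 0.29, SE, edgeR adjusted p = 2.66e-06). By library the corticotrope-gated level was 293 in female 3, 332 in lactating 1, 615 in male 3, 624 in the virgin, 731 in male 1, 1144 in the mt/hGRF and 1335 in the lactating 2 library. Melanotropes were higher in 6 of 7 libraries, the mt/hGRF library being the exception, and the mean log2 ratio of levels was 0.995 ± 1.10 (SD; exact two-sided sign-flip permutation test, p = 0.0469). These sums weight deep barcodes. By the median barcode melanotropes were higher in 7 of 7 libraries. The corticotrope-gated medians were 179 to 399 and those of melanotropes 682 to 2065. They were 271 against 689 in the mt/hGRF library and 399 against 974 in lactating 2. The gates differ in strictness, since 1 UMI makes a corticotrope-gated barcode and at least 2 genes a melanotrope. Barcodes with 1 melanotrope gene had Pomc medians of 101 to 568 by library. The part of gate strictness in this difference was not tested. The call on the summed levels was lost when any library but the mt/hGRF one was left out (exact permutation p = 0.0625 to 0.0938), and without female 3 the ratio was 0.649. Tbx19 was lower in melanotropes with 3 of the scalings, at 0.809 against 3.02 (-1.10 ± 0.32, edgeR adjusted p = 0.00835), but was not called with TMM factors from all genes (0.123), with the gate of 3 of the 7 genes (0.055) or without lactating library 1 (0.1458).

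Transcription factors separated the lineages in both directions. Etv1 was higher in melanotropes, at 3.14 against 0.650 per 10000 (3.06 ± 0.40, edgeR adjusted p = 7.42e-12). Neurod1, the basic helix-loop-helix factor of corticotropes, was lower, with 3 UMIs in melanotropes and 29 in the far fewer corticotrope-gated barcodes (-5.49 ± 0.70, edgeR adjusted p = 2.02e-12). Nr3c1, through which glucocorticoids feed back on corticotropes, was lower as well, at 0.443 against 4.83 (-2.56 ± 0.31). Of 14 lineage factors tested, 2 rose and 2 fell under all scalings.

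Channels and synaptic genes were the next group. Scn2a had 351 UMIs in melanotropes and 0 in corticotrope-gated barcodes, so it was at least 10.7-fold higher against a floor of 3 counts over the group. Cacna1a, the pore subunit of a presynaptic calcium channel, was higher, at 1.04 against 0.0464 (4.99 ± 0.77), on 1 UMI in the corticotrope-gated barcodes. Gabra2, a GABA receptor subunit, was at 0.877 against 0.186 (2.82 ± 0.61). Syt7 and Syt1, calcium sensors of exocytosis, were higher by 3.32 ± 0.56 and 1.53 ± 0.30, and Chga by 1.34 ± 0.26, whereas Rab3b, a small GTPase of secretory vesicles, was lower (-2.57 ± 0.35). Of 20 granule genes tested 3 rose and 1 fell under all scalings, and of 12 channel genes 2 rose.

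The processing enzymes tested, which leave out the gate gene Pcsk2, were not called under all scalings. Pcsk1 was at 0.851 against 1.30 per 10000 (0.15 ± 0.39), Cpe at 3.66 against 7.24 (-0.15 ± 0.26) and Scg5, the chaperone of the Pcsk2 convertase, at 7.46 against 12.8 (0.02 ± 0.25), with edgeR adjusted p of 0.868, 0.782 and 0.972. Pam was higher in all scalings but library totals, at 3.90 against 3.62 (0.89 ± 0.28, edgeR adjusted p = 0.0174), in 4 of 7 libraries. Pcsk1n was lower, at 3.87 against 17.8 (-1.35 ± 0.25, edgeR adjusted p = 3.89e-06), and lower in 7 of 7 libraries. Of 19 folding genes tested, Dnajb9, a chaperone of the endoplasmic reticulum, was called under all scalings, higher in melanotropes (2.80 ± 0.70) on 3 UMIs in the corticotrope-gated barcodes.

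The genes with the largest differences included several outside these groups. Ttn was at 14.2 against 0.279 per 10000 (6.38 ± 0.44, edgeR adjusted p = 5.51e-43). Tenm4, Eps8l2, Nespas, Col19a1, Grik1, Sema3e, Arpp21 and Whrn, and Pcsk2os1, an antisense RNA at the gate gene Pcsk2, had no UMI in corticotrope-gated barcodes and were at least 3.88-fold to 7.24-fold higher. Tnnt1, a troponin gene, was lower, at 0.0298 against 2.69 (-5.76 ± 0.51), as were Cdh8, an adhesion gene (-4.99), Rasd1, a small GTPase gene induced by glucocorticoids (-3.41), and the ferritin gene Fth1 (-2.78). Mt1 and Mt2 were lower (-2.25 and -2.71) and Mt3 higher (2.13), so the metallothionein genes did not move together. Each of Tnnt1, Cdh8, Rasd1, Fth1 and Mt2 was lower in 7 of 7 libraries.

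Marker genes of other cells moved with this comparison too. Gh was higher in melanotropes, at 710 against 199 per 10000 (2.22 ± 0.28), as were Prl (2.12 ± 0.27), Cga (2.498), Lhb (2.95), Tshb (3.35) and Hba-a1 (3.67), all called under the 4 scalings. These values were smaller with stricter melanotrope gates. With 3 of the 7 genes, Gh was at 1.53, Prl at 1.27 and the median of 3 hemoglobin genes at 1.69, down from 3.545. With the gate without Pcsk2 they were 1.83, 1.545 and 3.04. The corticotrope gate bars Ghrhr and Gnrhr and the melanotrope gate bars Gnrhr, and the part of other cells' RNA in the remaining differences was not tested.

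**Figure D5:**
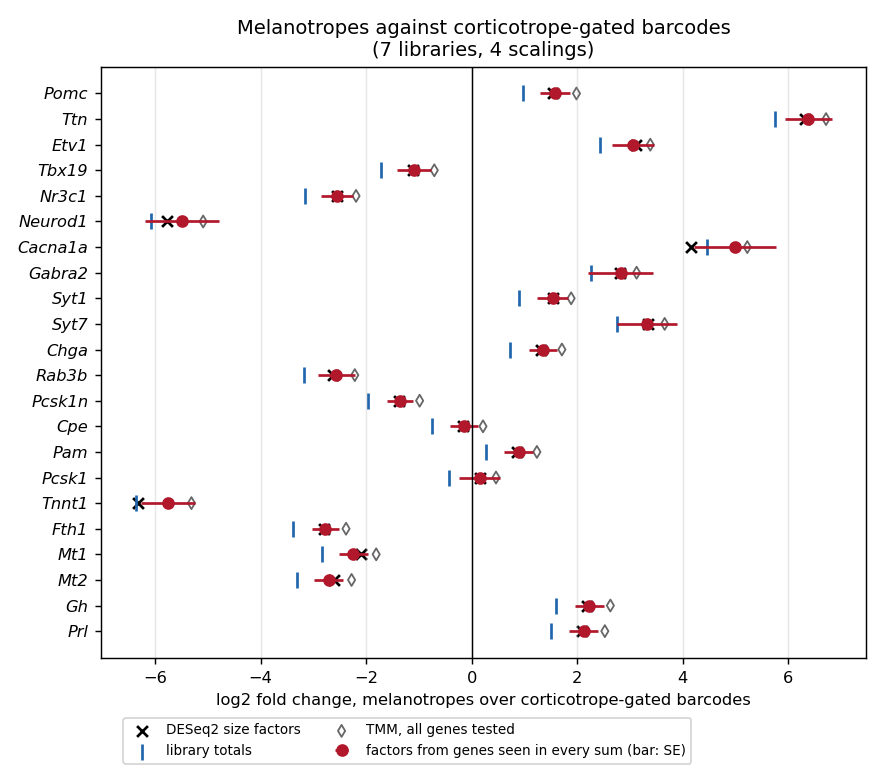
Log2 fold change of melanotropes over corticotrope-gated barcodes (7 libraries) for 22 genes, with the fitted value and its SE in red and 3 other scalings as crosses, bars and diamonds. Ttn lies furthest right (6.38) and Tnnt1 furthest left (-5.76) of these genes, and the markers of Cpe and Pcsk1 fall on both sides of 0.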

How the data were processed

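UMI counts per gene and barcode were deposited by the authors as matrices of 10 libraries: Drop-seq reads were aligned with STAR 2.5.2a to mm10, and the 10X Genomics reads were processed with Cell Ranger. All other values were computed from these counts. Barcodes were filtered and gated as described above; genes present in both annotations (24768) entered every comparison across platforms. The members and gene lists were chosen with earlier results of these data known.

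Counts were summed per library over melanotropes, and a gene was tested with edgeR 4.0.16 (R 4.3.3; quasi-likelihood test, TMM factors, filterByExpr with a minimum count of 3 and total of 15, Benjamini-Hochberg adjusted p below 0.05). For the comparison with corticotrope-gated barcodes the factors came from the 1243 genes seen in every sum, a choice made after seeing the data, when TMM over all genes shifted unchanged genes in simulated data. DESeq2 1.42.0, other filters, gates and scalings, and leaving out each library were alternatives. Only the main fits by sex, lactation, transgene and corticotrope gate were run on simulated data. The simulated counts came from a single mean profile per comparison at the real totals, without effects of platform, pair or cell class. Of 200 genes changed 4-fold there, 84.5% were recovered by sex, 19% by lactation, 7.5% by transgene and 62.5% against corticotrope-gated barcodes. Recovery in the real data, which hold such effects, was not measured. A gene not called with lactation or the transgene can thus still differ. Named genes were called genes without overlap between groups (for corticotrope-gated barcodes, in the same direction in every library), up to 10 in each direction, the members of the gene lists, and the 20 leading genes by median log2 ratio with 0.1 per 10000 added. Shares and Pomc ratios were tested with exact permutation tests (scipy 1.17.1). Depth was 122864 to 674018 melanotrope UMIs per library in the 7 libraries compared with corticotropes.

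Male and female Drop-seq libraries of one number share a tag in their titles (0324 or 0511), and those numbered 1 share only the platform. No label calls these pairs batches. Deviations from group means correlated at 0.908, 0.587 and 0.784 between same-numbered libraries over 1099 genes (0.391 for the Drop-seq pairs when taken alone). Male and female Drop-seq libraries of different numbers correlated at 0.360 and 0.377, and those of different platforms at -0.789 to -0.591. The platform thus enters these values along with the pair. The numbers were taken to pair the libraries. The sex comparisons as given are not blocked on the pair, and the fit with the pair as a block is an alternative. A few genes within these rules are not reported here.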

Additional observations from a re-analysis of the deposited data

Results flagged for a closer look

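For 13 genes the change in melanotropes differed from that in the other kept barcodes of the same libraries by an edgeR interaction test across all genes (1 of 19019 genes tested for lactation and 12 of 19019 for the transgene, with 403 and 549 at an unadjusted p under 0.05). With lactation, Ptgds, the prostaglandin D synthase gene, differed by 3.91 on the log2 scale (adjusted p = 4.73e-06): melanotropes held 0.399 UMIs per 10000 in lactating against 0.365 in virgin libraries, and the other barcodes 0.131 against 1.59, so the change lay in the other barcodes.

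With the transgene, 8 of the 12 were red blood cell genes, higher in mt/hGRF melanotropes relative to the other barcodes. Their differences were 7.07 for Hba-a1, 6.64 for Hbb-bs, 6.59 for Hbb-bt, 4.87 for Hbb-bh1, 11.04 for Hba-ps4, 11.04 for Hbb-bh3 and 10.87 for Hbb-y (the last 3 without a UMI in wild-type melanotropes, so that the fitted value is no bound), with 5.15 for Alas2, the heme synthesis enzyme of red blood cells. Dusp1 and Fos, both immediate-early genes, differed by 1.92 each (adjusted p = 0.0448 for both). Fos stood at 15.4 against wild-type levels of 0.345 and 11.7 in melanotropes and 3.63 against a mean of 5.36 in the other barcodes, and Dusp1 at 8.71 against 2.70 and 1.18 against 1.64. Gal differed by -4.43 (adjusted p = 2.42e-05), at 0.244 against 0.801 in melanotropes and 1.94 against 0.757 in the other barcodes. Ttyh1, a chloride channel gene, differed by -2.41 (adjusted p = 0.00301), at 3.01 against 2.73 and 6.48 against 1.15. For Gal, the mt/hGRF melanotropes held 3 UMIs, and the wild-type ones stood at 0.345 in female 2 (also 3 UMIs) and 1.26 in female 3. The differences come from a fit with scaling factors, so they need not match the printed levels. The mt/hGRF and virgin groups are 1 library each, so a change of the group and a property of that library cannot be told apart.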

How the results depend on the processing

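The gate asking for 3 of the 7 genes kept 930 melanotropes and the gate without Pcsk2 kept 1161. Against corticotrope-gated barcodes the Pomc ratio was 1.13 with barcodes of at least 500 UMIs (5 libraries; exact permutation p = 0.125, where 0.0625 is the smallest possible) and 1.08 with the Drop-seq libraries alone (p = 0.0938, exact permutation test), and leaving out each library gave 0.649 to 1.20. It passed the exact permutation test with 3 of the 7 genes (1.24, p = 0.0156), without Pcsk2 (1.10, p = 0.0313) and without barcodes above the 95th percentile of UMIs (1.45, p = 0.0313). Against the other kept barcodes the Pomc ratio kept its direction and its side of the threshold in all 15 alternatives run. The share by sex kept its direction in all 13, none of which could reach the threshold. The number of genes called by sex was 5 without the platform term, 4 with the Drop-seq libraries alone and 6 to 9 with each library left out. With the batch pairing as a block it was 19, and the share difference within batches gave p = 0.75 (exact permutation test). Lactation gave 1 gene with DESeq2, 4 without a filter, 1 with the default filter and 1 to 5 with each library left out. Pomc with lactation turned from 0.26 to -0.00126 with library totals and, with each library left out, ranged from -0.37 (without lactating library 2) to 0.69. The transgene gave 0 genes with DESeq2 and 0 to 3 with each library left out. The comparison with corticotrope-gated barcodes gave 579 genes with DESeq2 and 560 to 1071 with each library left out. The causes of these changes were not tested.

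Depth limits genes of low level: melanotropes of a library held as few as 75725 UMIs and corticotrope-gated barcodes 10180, and intervals cover counting error only.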
